A study of Pan troglodytes and Macaca mulatta with 12 samples.

Results

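The proteasome is the protease complex that degrades ubiquitin-tagged proteins, and in B lymphocytes it also makes the peptides that MHC class I molecules present. Its core particle stacks rings of alpha subunits, which form the gate, on rings of beta subunits, some of which carry the protease sites. A regulatory particle, built of a base with an ATPase ring and of a lid, binds and unfolds ubiquitin-tagged substrates. Other activators can take its place on the core, and dedicated chaperones assist the assembly of core and base.

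Genes of this complex were compared between lymphoblastoid cell lines of 6 chimpanzees (Pan troglodytes, 3 females and 3 males) and 6 rhesus macaques (Macaca mulatta, 2 females and 4 males), with 1 RNA-seq library for each individual. Lymphoblastoid lines are B lymphocytes immortalised for growth in culture, so levels in them need not be those of cells in the animal. All lines grew in the same medium without any treatment named in the labels, and the animals' ages are not given there. Members were the 43 gene identifiers listed for the PSMA, PSMB (outside the MHC region), PSMC, PSMD, PSME, PSMF and PSMG families and POMP. Of these, 41 had counts among the 16903 genes of the series, and 2 were not analysed here. The levels are counts of reads on exons, summed per gene. CPM is the count scaled to a common library size, and a log2 fold change is chimpanzee over rhesus macaque.

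The files give identifiers without gene names. Names were assigned from the order, length and spacing of genes along chromosomes, set against the RefSeq annotation of the chimpanzee assembly NHGRI_mPanTro3-v2.0_pri, and they are inferences, not an annotation of the identifiers. For 9 members (PSMA4, PSMB7, PSMC4, PSMD2, PSMD3, PSMD4, PSMD9, PSME1 and POMP) the match used no knowledge of the family. A further 29 were the only gene of the listed families between or beyond matched neighbours, and 3 (PSMB3, PSMB5 and PSMD11) were chosen among several by distance. Among the 29, PSMA7, PSMB1, PSMD1, PSMD13 and PSMF1 had a matched neighbour on a single side, and the search ran outward from it. Every statement on a subcomplex below depends on these names. The members fell into 7 alpha ring genes, 8 beta ring genes, 6 base ATPases, 3 other base subunits, 7 lid subunits, 5 assembly chaperones and 5 genes for activators and an inhibitor.

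Library totals lay between 1434241 and 4751954 counts for chimpanzee lines and between 1801830 and 4600137 for rhesus macaque lines. The members held 209252 counts in all, between 18 and 19625 per gene. They took 0.627 ± 0.035% of the counts of a chimpanzee library and 0.620 ± 0.105% of those of a rhesus macaque library (SD, n = 6 each). No pair of libraries of a species agreed within counting noise. In 14 members only 1 to 3 exons were counted. Several proteasome genes have processed pseudogene copies, and how reads matching a copy were counted is not stated, so values of members with few exons are less certain. Both species were counted on the same set of exons, and how well reads of each species map to it is not stated. In every species difference below, mapping and RNA level cannot be told apart. Of the 16 marker genes listed for the cell types the cultures could hold, 6 received an identifier. The B lymphocyte marker CD79B averaged 152 CPM in chimpanzee lines and 197 CPM in rhesus macaque lines. Among markers of other cells, COL1A1 (fibroblast) averaged 18.8 CPM in chimpanzee lines and 2.33 CPM in rhesus macaque lines (edgeR adjusted p = 0.0026), while COL1A2, of the same cell type, was at 0 to 0.807 CPM in chimpanzee lines and 0 to 0.646 CPM in rhesus macaque lines. CD3D (T lymphocyte) was at 0 in all 6 chimpanzee libraries and ranged from 0 to 171 CPM in rhesus macaque libraries. CD2, of the same cell type, averaged 12.2 CPM in chimpanzee lines and 3.38 CPM in rhesus macaque lines. LYZ (monocyte), with 43 counts in all, averaged 2.70 CPM and ranged from 0 to 14.3 CPM in chimpanzee libraries. It was at 0 in rhesus macaque lines. The part of these cells in the results below was not tested, and in bulk RNA fewer cells of a type and less RNA per cell cannot be told apart.

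The question was which parts of the proteasome differ in RNA level between the species. In chimpanzee lines 3 genes of the alpha ring rose and 3 genes of the beta ring fell, and 5 other members changed, in both directions. Of 39 members with enough counts to test, 6 rose and 5 fell in chimpanzee at an adjusted p under 0.05 (edgeR quasi-likelihood test). The 6 higher members stand beside 24.7% of all 9440 tested genes called higher, and the 5 lower members beside 23.6% called lower. Together the 11 are 28.2% of the members, against 48.3% of all tested genes. The median size of the log2 fold change was 0.44 over the members and 0.71 over all tested genes, and the median with its sign was 0.09 over the members and 0.04 over all tested genes. By ring, 3 of 7 alpha ring genes rose and 0 fell, and 3 of 8 beta ring genes fell and 0 rose. These are 42.9% of the alpha and 37.5% of the beta genes called, against 48.3% of all tested genes called in either direction. By DESeq2 the alpha ring again had 3 higher and 0 lower genes, and the beta ring had 0 higher and 4 lower. DESeq2 called 25.5% of all tested genes higher and 25.4% lower. Without chimpanzee replicate 1 and rhesus macaque replicate 3, the libraries farthest from their species in these genes, 10 members were higher and 3 lower, beside 22.2% of all genes tested in that fit called in each direction, and the rings had 4 higher alpha and 1 lower beta gene. That choice of libraries was made after seeing the data.

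**Figure D1:**
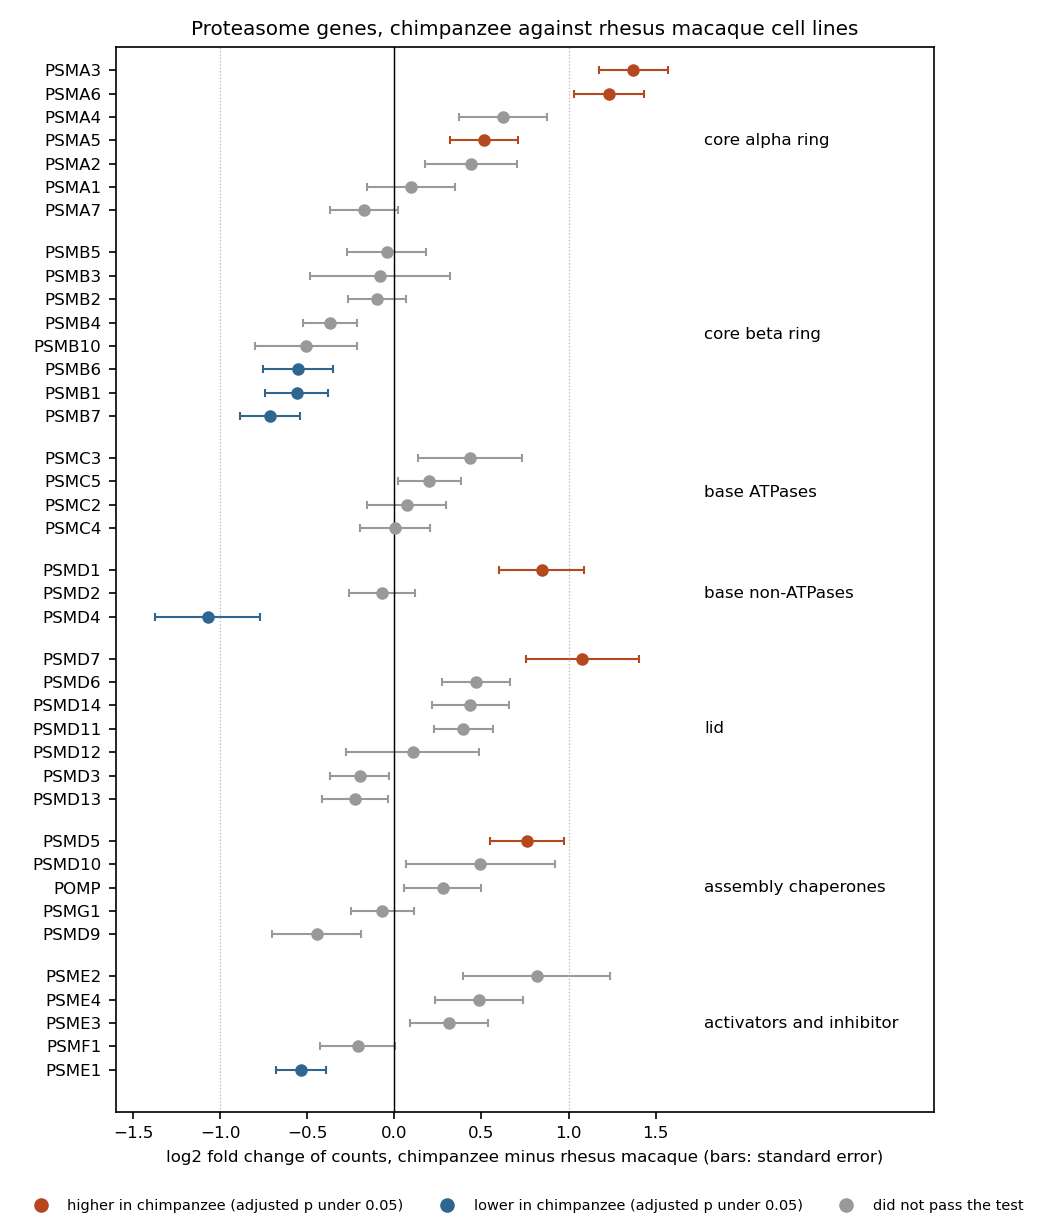
Log2 fold change of counts (horizontal axis, chimpanzee minus rhesus macaque) with its standard error for the 39 tested members, grouped by subcomplex and ordered by value, with dotted lines at a fold of 2 and colours for the edgeR calls. The 8 beta ring genes all lie left of 0, between -0.71 and -0.04, while 6 of the 7 alpha ring genes lie right of it and reach 1.37.

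The largest differences towards chimpanzee were in the alpha ring, whose subunits build the gated outer rings of the core. PSMA3 (ENSG00000100567, chromosome 14 from 57794216 to 57808477 as the files give it, build not given, 4 counted exons) had 46.2 CPM at the lowest, 61.4 at the median and 64.8 at the highest in chimpanzee libraries, against 16.4, 24.2 and 28.9 CPM in rhesus macaque libraries. All 6 chimpanzee libraries lay above all 6 rhesus macaque libraries. The log2 fold change was 1.37 (standard error 0.20, edgeR adjusted p = 7.60e-05), and all 4 exons were higher in chimpanzee. PSMA6 (ENSG00000100902, chromosome 14 from 34831325 to 34831509), counted on 1 exon of 185 bases, had 34.7, 38.1 and 40.0 CPM at the lowest, median and highest in chimpanzee, against 11.1, 15.8 and 20.9 CPM in rhesus macaque. Its species did not overlap either, and its log2 fold change was 1.23 (standard error 0.20, edgeR adjusted p = 0.000196).

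A smaller rise was called for PSMA5, at 142 to 227 CPM in chimpanzee libraries, against 82.4 to 165 CPM in rhesus macaque libraries, with overlapping libraries (log2 fold change 0.52, standard error 0.20, edgeR adjusted p = 0.042). That call was lost in 8 of the fits that leave out a single library, with adjusted p up to 0.101 without rhesus macaque replicate 4. PSMA4 stood at 163 to 493 CPM in chimpanzee libraries, against 136 to 214 CPM in rhesus macaque libraries and did not pass (log2 fold change 0.62, edgeR adjusted p = 0.054). Its highest value came from chimpanzee replicate 1, and the other 5 chimpanzee libraries ended at 233 CPM. Without chimpanzee replicate 1 and rhesus macaque replicate 3 the PSMA4 log2 fold change was 0.41 and passed (edgeR adjusted p = 0.0442). Without chimpanzee replicate 1 and rhesus macaque replicates 5 and 6 it was 0.34 and did not pass (edgeR adjusted p = 0.161). The other alpha genes with a positive log2 fold change did not pass, at 0.44 and 0.09. PSMA7, the alpha gene with most counts, averaged 319 ± 57.4 CPM in chimpanzee lines, against 360 ± 95.6 CPM in rhesus macaque lines (SD, n = 6 each) and was the only alpha gene with a negative log2 fold change, -0.17, which did not pass.

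In the beta ring, which holds the protease sites, 3 of 8 genes fell, 0 rose and 5 did not pass. PSMB7 (ENSG00000136930, chromosome 9 from 126155566 to 126217542, 9 counted exons), the subunit with trypsin-like activity, had 253 CPM at the lowest, 285 at the median and 331 at the highest in chimpanzee, against 326, 484 and 576 CPM in rhesus macaque. The species overlapped only between the highest chimpanzee and the lowest rhesus macaque library. Its log2 fold change was -0.71 (standard error 0.17, edgeR adjusted p = 0.00333), and 7 of the 8 exons with at least 10 counts were lower in chimpanzee. PSMB6, which carries the caspase-like site, had 136, 183 and 216 CPM at the lowest, median and highest in chimpanzee, against 167, 265 and 375 CPM in rhesus macaque (log2 fold change -0.55, standard error 0.20, edgeR adjusted p = 0.035). Its libraries overlapped, and the call was lost in 6 of the fits that leave out a single library, with adjusted p up to 0.0755 without rhesus macaque replicate 3.

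PSMB5, the subunit with chymotrypsin-like activity, averaged 81.5 ± 22.8 CPM in chimpanzee lines, against 84.2 ± 22.5 CPM in rhesus macaque lines (SD, n = 6 each), and its log2 fold change of -0.04 (standard error 0.23) did not pass. Of the genes without a protease site, PSMB1 fell to 234 to 357 CPM in chimpanzee, against 348 to 626 CPM in rhesus macaque (log2 fold change -0.56, standard error 0.18, edgeR adjusted p = 0.0193). Without chimpanzee replicate 1 and rhesus macaque replicate 3 its log2 fold change was -0.38 and the call was lost (edgeR adjusted p = 0.0531). PSMB4 (ENSG00000159377) had 382 to 474 CPM in chimpanzee libraries, against 488 to 768 CPM in rhesus macaque libraries. These ranges did not overlap, yet the gene missed the threshold (log2 fold change -0.37, edgeR adjusted p = 0.060). PSMB4 passed by DESeq2 (DESeq2 adjusted p = 0.0222) and without its exon with most counts (edgeR adjusted p = 0.0274). Without chimpanzee replicate 1 and rhesus macaque replicate 3 its log2 fold change was -0.23 and did not pass (edgeR adjusted p = 0.169). PSMB10, set out with the ratios further below, had a log2 fold change of -0.51 and did not pass. The other remaining beta genes had log2 fold changes of -0.10 and -0.08 and did not pass. PSMA4, PSMA5, PSMA6, PSMB1 and PSMB4, and PSMC5, PSMD1, PSMD6, PSMD11 and PSMD14 further below, are named with values that had already been seen.

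**Figure D2:**
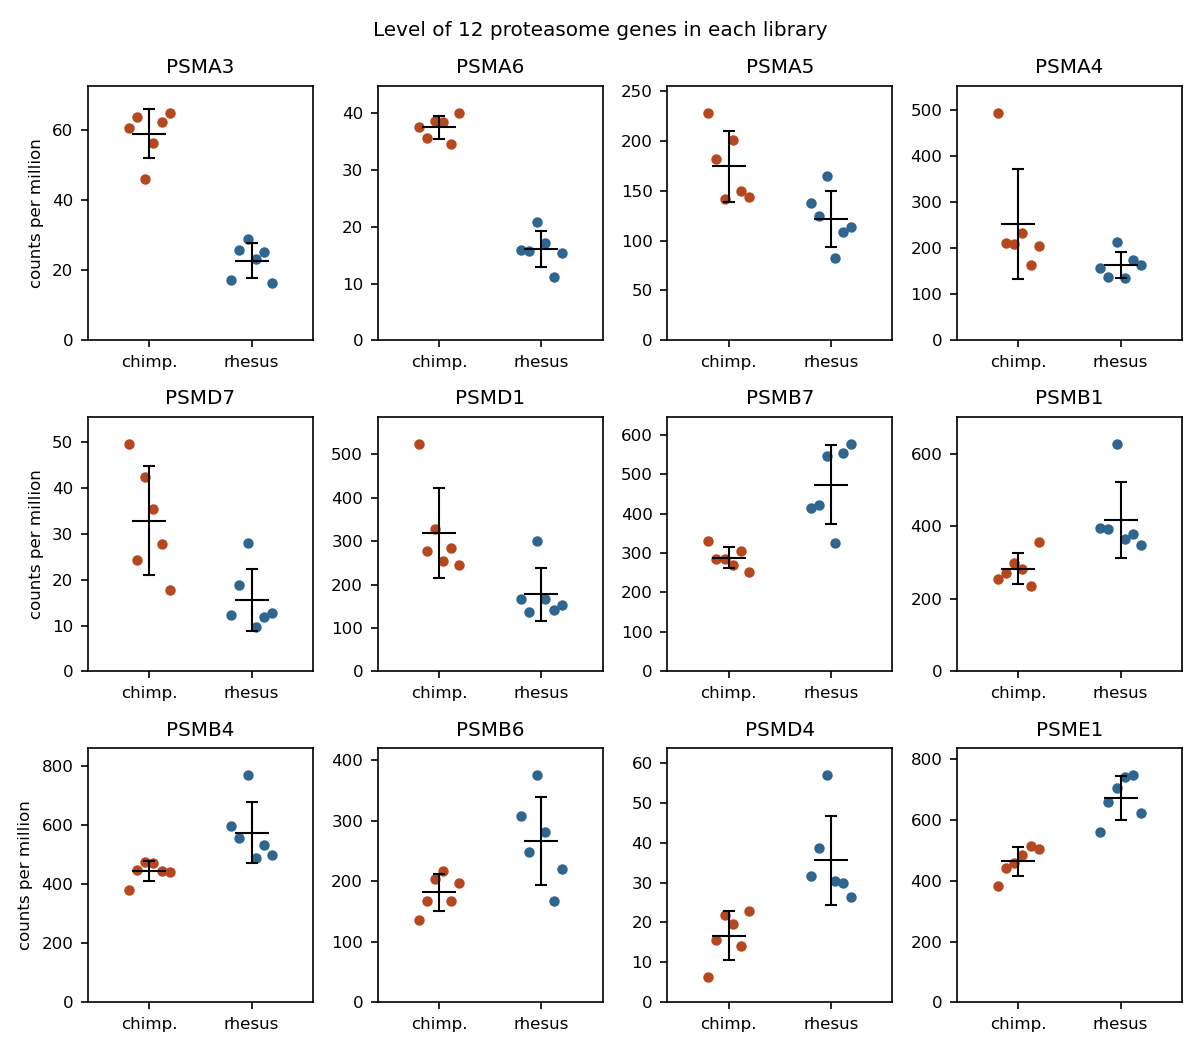
Level in CPM (vertical axes, from 0) of 12 members in each chimpanzee library (left) and each rhesus macaque library (right), replicates 1 to 6 from left to right within a group, with the mean and SD as bars. The species do not overlap in PSMA3, PSMA6, PSMB4, PSMD4 and PSME1.

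Levels of different genes were set side by side per length of counted exon, as CPM per kilobase. Summed over its 7 genes, the alpha ring stood at 1685 ± 299 CPM per kilobase in chimpanzee lines and 1309 ± 254 in those of rhesus macaque (SD, n = 6 each). The 8 beta ring genes summed to 2297 ± 267 CPM per kilobase in chimpanzee and 3030 ± 667 in rhesus macaque. The ratio of the alpha to the beta sum, which does not depend on scaling between libraries, was 1.23, 0.611, 0.634, 0.771, 0.586 and 0.699 in chimpanzee replicates 1 to 6, against 0.446, 0.441, 0.410, 0.382, 0.461 and 0.466 in rhesus macaque replicates 1 to 6. Every chimpanzee library had a higher ratio than every rhesus macaque library, also among the 5 chimpanzee libraries other than replicate 1. Over the 5 alpha and 5 beta genes with more than 3 counted exons, the ratio ran from 0.722 to 1.31 in chimpanzee and from 0.492 to 0.587 in rhesus macaque. No test was made of these ratios, because the members were grouped with results of these data known.

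**Figure D3:**
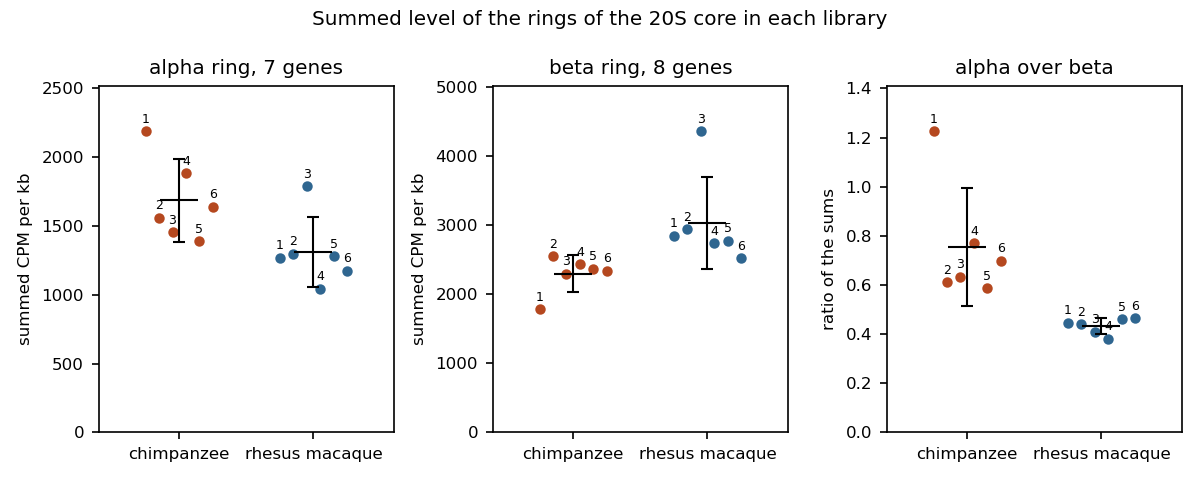
Summed CPM per kilobase of the alpha ring and the beta ring genes, and the ratio of the 2 sums (vertical axes, from 0), in each chimpanzee library (left) and rhesus macaque library (right), with replicate numbers above the points and the mean and SD as bars. The ratio lies between 0.586 and 1.23 in chimpanzee and between 0.382 and 0.466 in rhesus macaque, while the summed levels of each ring overlap between the species.

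The highest level per length among the members was that of PSMB4 in chimpanzee, at 484 ± 36.6 CPM per kilobase, and of PSME1 in rhesus macaque, at 650 ± 70.4. In rhesus macaque PSMB4 followed PSME1 at 625 ± 112 CPM per kilobase, and in chimpanzee PSME1 followed PSMB4 at 448 ± 46.9, so that in both species these 2 neighbours lay within 1 SD of each other. PSMA7 held rank 3 in both, at 444 ± 79.9 CPM per kilobase in chimpanzee and 501 ± 133 in rhesus macaque. Beta ring genes held ranks 1, 4, 6, 7, 8, 11, 12 and 21 of 41 in chimpanzee and ranks 2, 4, 5, 6, 7, 8, 10 and 19 in rhesus macaque. The PSMA3 level ranked 20 in chimpanzee, at 146 ± 17.1 CPM per kilobase, and 31 in rhesus macaque, at 56.2 ± 12.3. The lowest places were those of PSMC1 and a base chaperone in both species, each under 14 CPM per kilobase. PSMC1 was counted on 1 exon of 51 bases, with 18 counts in all, so its place is less certain. The same holds for PSMB3 among the beta ring genes, counted on 1 exon of 81 bases.

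In the base, the ring of ATPases that unfolds substrates showed no call. PSMC2, PSMC3, PSMC4 and PSMC5 could be tested, and 0 of 4 passed by edgeR, with 0 at an unadjusted p under 0.05. DESeq2 also called 0. PSMC3 had the largest log2 fold change, 0.43 (standard error 0.30), with medians of 25.3 CPM in chimpanzee libraries, against 17.9 CPM in rhesus macaque. PSMC4 (ENSG00000013275, 10 counted exons) had near-equal means, 217 ± 36.5 CPM in chimpanzee lines, against 217 ± 56.8 CPM in rhesus macaque lines (SD, n = 6 each) and a log2 fold change of 0.00 (standard error 0.20). PSMC1 and PSMC6 had 18 and 83 counts in all, each on 1 exon, and were not tested. Without chimpanzee replicate 1 and rhesus macaque replicate 3, PSMC3 and PSMC5 passed, with log2 fold changes of 0.76 and 0.40 (edgeR adjusted p = 0.0366 and 0.0375).

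The other base subunits differed in opposite directions. PSMD4 (ENSG00000159352, chromosome 1 from 149493809 to 149505221), a receptor for ubiquitin chains, had 6.28, 17.6 and 22.8 CPM at the lowest, median and highest in chimpanzee, against 26.4, 31.1 and 56.8 CPM in rhesus macaque. The species did not overlap, and the log2 fold change was -1.07 (standard error 0.30, edgeR adjusted p = 0.00938). The gene was counted on 2 exons, 1 of which held 91.7% of the counts. The other, exon 1, had 60 counts over the chimpanzee libraries, 41 of them in replicate 6, and 13 over the rhesus macaque libraries. PSMD1 (ENSG00000173692, chromosome 2 from 231629853 to 231745717, 25 counted exons), a large scaffold subunit, had 245, 281 and 523 CPM at the lowest, median and highest in chimpanzee, against 137, 159 and 300 CPM in rhesus macaque. The libraries overlapped only through rhesus macaque replicate 3, which stood at 300 CPM while the other 5 rhesus macaque libraries ended at 168 CPM. The log2 fold change was 0.85 (standard error 0.24, edgeR adjusted p = 0.0106), and all 25 exons were higher in chimpanzee. Without chimpanzee replicate 1 and rhesus macaque replicates 5 and 6, which stood apart along chromosome 19 in earlier results of these data, it was 0.52 and missed the threshold (edgeR adjusted p = 0.083). The other scaffold subunit, PSMD2, did not pass.

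In the lid, which removes ubiquitin chains before degradation, 1 of 7 genes rose and 0 fell. PSMD7 (ENSG00000103035, chromosome 16 from 72892954 to 72893691), the partner of the deubiquitinating subunit PSMD14, had 17.7, 31.6 and 49.5 CPM at the lowest, median and highest in chimpanzee, against 9.70, 12.5 and 27.9 CPM in rhesus macaque. Its libraries overlapped, it was counted on 2 exons of 179 bases in all, and its log2 fold change was 1.08 (standard error 0.32, edgeR adjusted p = 0.0135). Without chimpanzee replicate 1 and rhesus macaque replicates 5 and 6 its log2 fold change was 0.77 and did not pass (edgeR adjusted p = 0.108). PSMD14 itself did not pass. Without its exon with most counts, PSMD14 had a log2 fold change of 0.54 and passed (edgeR adjusted p = 0.0403). PSMD6 and PSMD11 missed the threshold with log2 fold changes of 0.47 and 0.40 (edgeR adjusted p = 0.059 and 0.066). Both passed without rhesus macaque replicate 3, at 0.53 and 0.47 (edgeR adjusted p = 0.046 and 0.034). The other lid genes had log2 fold changes between -0.23 and 0.44.

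Among activators, PSME1 (ENSG00000092010, chromosome 14 from 23676034 to 23678015, 9 counted exons) fell. It encodes a subunit of the interferon-inducible PA28 ring, which caps the core and alters peptide production. PSME1 had 382, 471 and 515 CPM at the lowest, median and highest in chimpanzee, against 561, 682 and 748 CPM in rhesus macaque, with no overlap. The log2 fold change was -0.54 (standard error 0.15, edgeR adjusted p = 0.00756). Exon 9, with 48.2% of the counts, overlaps an exon of another identifier and without strand its reads could come from either gene. Without that exon the log2 fold change was -0.39 and missed the threshold (edgeR adjusted p = 0.053). PSME2, the partner subunit of PSME1 in that ring, was counted on 1 exon of 113 bases and had 5.33 to 34.0 CPM in chimpanzee libraries, against 5.50 to 11.2 CPM in rhesus macaque libraries. It did not pass (log2 fold change 0.82, standard error 0.42, edgeR adjusted p = 0.123). Its highest value came from chimpanzee replicate 6, the other 5 chimpanzee libraries ended at 11.6 CPM, and without replicate 6 the log2 fold change was 0.21 (edgeR adjusted p = 0.594).

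PSME3, which forms a nuclear ring of the same family, had 55.0 to 111 CPM in chimpanzee libraries, against 49.7 to 107 CPM in rhesus macaque libraries and did not pass (log2 fold change 0.31). PSME4, the single-chain activator known as PA200, had 148 to 299 CPM in chimpanzee libraries, against 101 to 236 CPM in rhesus macaque libraries. Its log2 fold change of 0.49 did not pass, with 36 of 42 exons higher in chimpanzee. Without the PSME4 exon with most counts the log2 fold change was 0.65 and passed (edgeR adjusted p = 0.0305). PSMF1, known as an inhibitor of the core, did not pass in the main fit.

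Among assembly chaperones, 1 of 5 genes rose and 0 fell. PSMD5 (ENSG00000095261, chromosome 9 from 122617822 to 122645027, 10 counted exons), a chaperone of the base, had 62.7, 76.2 and 119 CPM at the lowest, median and highest in chimpanzee, against 36.4, 44.1 and 64.2 CPM in rhesus macaque. The libraries overlapped slightly, all 10 exons were higher in chimpanzee, and the log2 fold change was 0.76 (standard error 0.21, edgeR adjusted p = 0.0091). PSMD9, which chaperones the base as well, had the lowest log2 fold change of the chaperones, -0.45, and did not pass. POMP, the maturation factor of the core, had 105 to 241 CPM in chimpanzee libraries, against 95.8 to 170.0 CPM in rhesus macaque libraries, and PSMG1, which helps to build the alpha ring, averaged 80.7 ± 10.8 CPM in chimpanzee lines, against 84.7 ± 18.5 CPM in rhesus macaque lines (SD, n = 6 each). Neither passed, with log2 fold changes of 0.28 and -0.07. Without its exon with most counts, POMP had a log2 fold change of 0.71 and passed (edgeR adjusted p = 0.0300).

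None of these differences passed the test of being beyond 2-fold. With edgeR's glmTreat 0 of 39 members passed, against 17.3% of all tested genes, and 2 members (PSMA3 and PSMA6) had an unadjusted p under 0.05 in it. PSMA3 came nearest (edgeR adjusted p = 0.059). DESeq2's test at the same fold also called 0 members. PSMA3 passed without chimpanzee replicate 3 or without rhesus macaque replicate 3 (edgeR adjusted p under 0.05). In 5 members (PSMA3, PSMA6, PSMB4, PSMD4 and PSME1) the species did not overlap, which is 12.8% of the tested members, against 27.1% of all tested genes.

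Members of 1 part of the particle, or in alternative places on it, were also compared as ratios within each library. Each ratio was taken as log2 of the ratio of counts per length. The 4 ratios were tested with an exact two-sided permutation test over the libraries, which cannot give a p below 0.00216 with 6 against 6, and adjusted over the 4 by the Benjamini-Hochberg method. PSME1 over PSME2 averaged 2.21 ± 0.87 in chimpanzee lines and 3.31 ± 0.43 in those of rhesus macaque (SD, n = 6 each), a difference of -1.09 (exact permutation p = 0.0130, adjusted 0.0173). PSME1 over PSME3 averaged 2.14 ± 0.48 in chimpanzee lines and 2.99 ± 0.40 in those of rhesus macaque, a difference of -0.85 (exact permutation p = 0.00866, adjusted 0.0173). The libraries of the species overlapped in both. PSMD4 over PSMC2, a ubiquitin receptor over an ATPase of the same base, averaged -0.28 ± 0.69 in chimpanzee lines and 0.96 ± 0.52 in those of rhesus macaque with no overlap, a difference of -1.24 (exact permutation p = 0.00216, the smallest possible, adjusted 0.00866). PSMB10, the immunoproteasome subunit that replaces PSMB7, was set against it: PSMB10 over PSMB7 averaged -0.01 ± 0.48 in chimpanzee lines and -0.29 ± 0.56 in those of rhesus macaque, a difference of 0.28 that did not pass (exact permutation p = 0.359, adjusted 0.359). PSMB10 itself had 87.9, 117 and 155 CPM at the lowest, median and highest in chimpanzee, against 99.2, 136 and 344 CPM in rhesus macaque, and did not pass (log2 fold change -0.51, edgeR adjusted p = 0.168). Reads of exon 9 of PSME1 enter its ratios. The ratio of PSMD4 over PSMC2 uses the same PSMD4 counts as the species test above, 91.7% of them on 1 exon. It is therefore not independent of that test.

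Within a species the members varied less between libraries than the typical gene. The median SD of log2 CPM over the tested members was 0.32 in chimpanzee and 0.34 in rhesus macaque, while over all tested genes it was 0.48 in chimpanzee and 0.45 in rhesus macaque, which include genes with far fewer counts. In each species 1 library stood apart in these genes. In rhesus macaque replicate 3, 38 of the 39 members lay above the mean of the species and 27 were at the highest of the 6 libraries. Their median deviation was 0.45 on the log2 scale, while that of all tested genes in the same library was 0.00. Members took 0.821% of the counts of that library and between 0.534% and 0.631% of the other rhesus macaque libraries. Chimpanzee replicate 1, the library with the lowest total, held the highest of the 6 chimpanzee values in 17 members and the lowest in 11. There the median deviation was 0.41 for the alpha ring, 0.48 for the lid and 0.60 for the assembly chaperones, but -0.30 for the beta ring and -0.22 for the base ATPases. Without these libraries the median SD was 0.23 in chimpanzee and 0.26 in rhesus macaque.

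**Figure D4:**
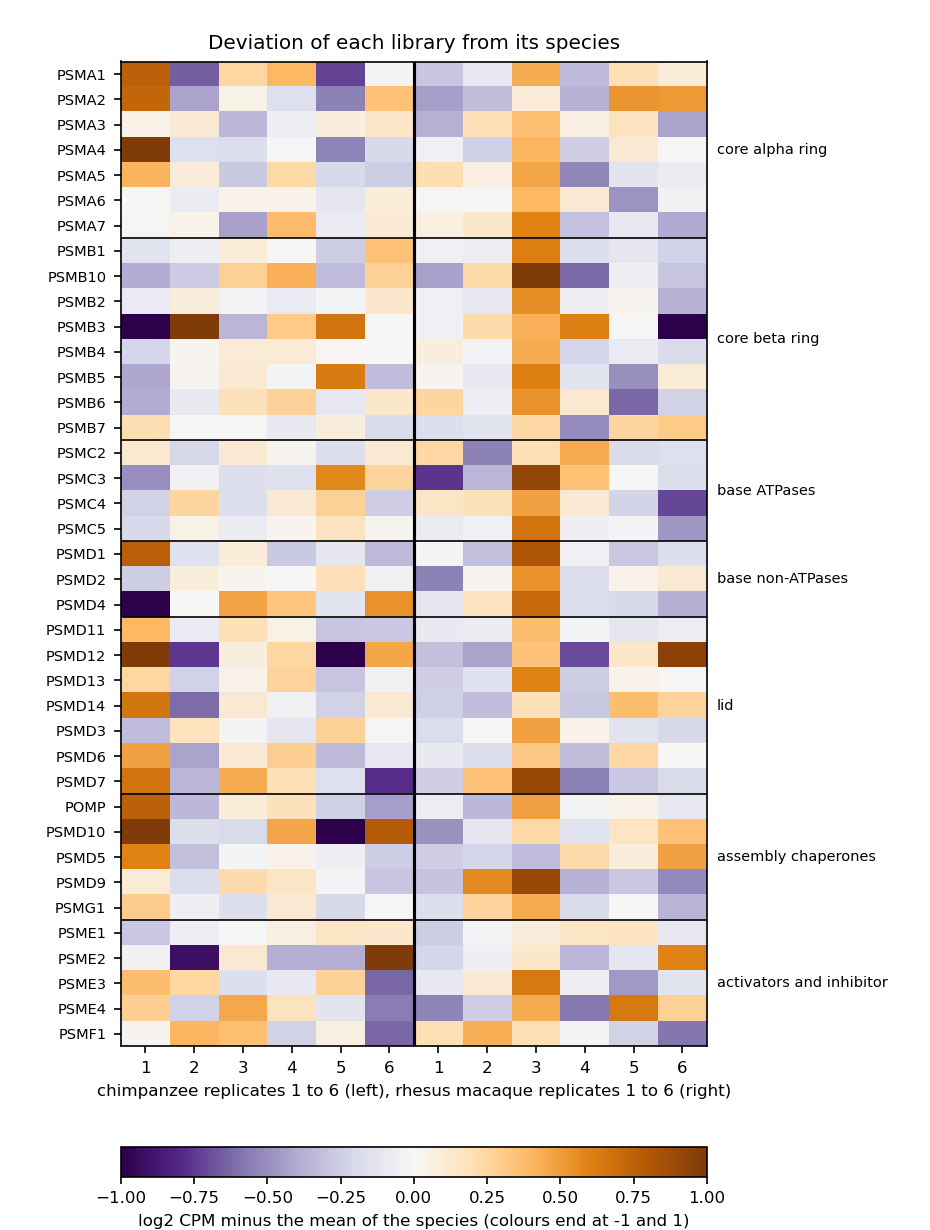
Log2 CPM of each tested member (rows, by subcomplex) minus the mean of its species, in chimpanzee replicates 1 to 6 (left of the line) and rhesus macaque replicates 1 to 6 (right of the line), brown above and purple below the mean. The column of rhesus macaque replicate 3 is brown in 38 of 39 rows, and that of chimpanzee replicate 1 has 23 rows above and the others below the mean.

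The share of a gene's counts on each exon differed between the species in 2 of the 36 members with at least 2 tested exons (diffSpliceDGE of edgeR, Simes, adjusted p under 0.05), against 4.27% of all genes tested in this way. The gene-level F test called 11 of the 36 members, beside 16.8% of all genes tested. Leaving out 1 library at a time, an alternative added after seeing the data, gave 0 to 3 members. Over all genes these fits called between 260 of 9913 (without rhesus macaque replicate 3) and 504 of 9838 (without rhesus macaque replicate 6). In PSMD1 (Simes adjusted p = 0.0203), exon 9 (chromosome 2 from 231649992 to 231650120, 129 bases) held 2.50 ± 0.84% of the gene's counts in chimpanzee lines and 0.609 ± 0.359% in those of rhesus macaque (SD, n = 6 each). It had 121 counts over the chimpanzee libraries and 18 over the rhesus macaque libraries. Exon 12 held 7.06 ± 2.93% of the counts in chimpanzee lines and 3.01 ± 0.87% in those of rhesus macaque, but did not pass as an exon (edgeR adjusted p = 0.082). The call for PSMD1 was lost without chimpanzee replicate 1, rhesus macaque replicate 2 or rhesus macaque replicate 3 (Simes adjusted p = 0.114, 0.0631 and 0.290). In PSMD4 (Simes adjusted p = 0.0199), exon 1 held 13.2 ± 12.5% in chimpanzee lines and 2.43 ± 2.73% in those of rhesus macaque. Its share ran from 0 to 35.3% among chimpanzee libraries and from 0 to 7.45% among rhesus macaque libraries, so the libraries overlapped. Of its 60 chimpanzee counts 41 were in replicate 6. The call for PSMD4 was lost without chimpanzee replicate 6, rhesus macaque replicate 2 or rhesus macaque replicate 3 (Simes adjusted p = 0.186, 0.0559 and 0.0813). How well reads of each species map to the shared exon definitions is not stated, and its part in these shares and in the gene levels was not tested.

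**Figure D5:**
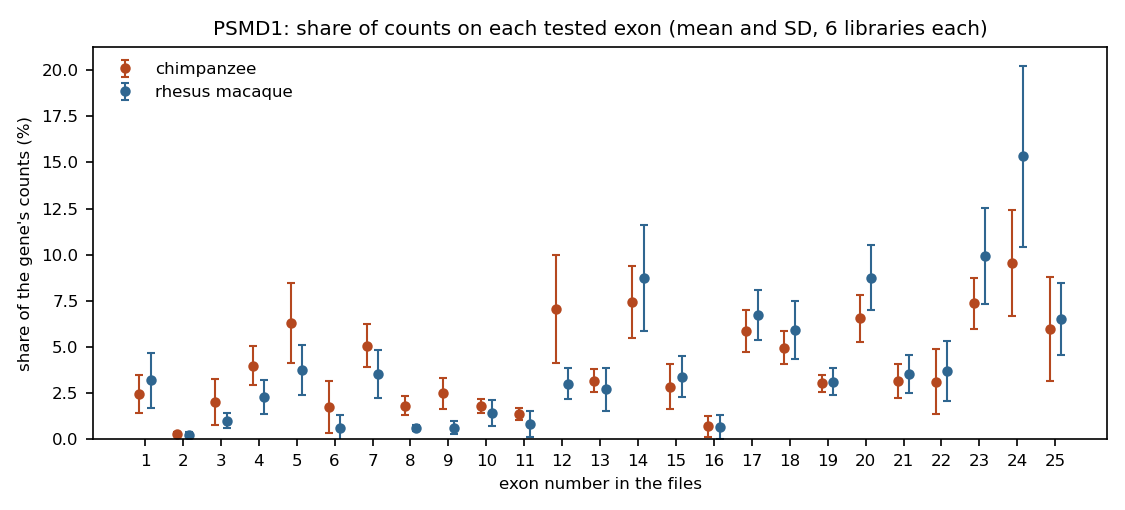
Share of the counts of PSMD1 on each of its 25 exons (vertical axis, percent, mean and SD over 6 libraries per species), by exon number in the files, chimpanzee left and rhesus macaque right at each exon. Exon 9 holds 2.50% in chimpanzee and 0.609% in rhesus macaque.

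Sex was compared within each species in a fit of 4 groups. By edgeR 0 of 39 members differed between females and males in chimpanzee (1 at an unadjusted p under 0.05, PSME2), 0 in rhesus macaque (0 at an unadjusted p under 0.05), and 0 in the difference between the species (1, PSMB10). Over all tested genes 0 passed in any of these contrasts either. With only males, 3 chimpanzee and 4 rhesus macaque libraries, 2 members were higher and 2 lower in chimpanzee, beside 14.4% of all genes tested in that fit called in each direction.

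Of 31 symbols listed for other genes of the pathway (some of them alternative names of 1 gene), 4 received an identifier by position, so that the pathway around the proteasome was covered only in small part. Of these, 1 rose and 0 fell. RPS27A, which encodes ubiquitin fused to a ribosomal protein, had 10.7 to 105 CPM in chimpanzee libraries, against 8.40 to 27.9 CPM in rhesus macaque libraries (log2 fold change 1.27, standard error 0.50, edgeR adjusted p = 0.048), with overlapping libraries. UBA1, the main ubiquitin-activating enzyme, averaged 522 ± 155 CPM in chimpanzee lines, against 717 ± 158 CPM in rhesus macaque lines (SD, n = 6 each) and did not pass (log2 fold change -0.46). NFE2L1, a transcription factor known to drive proteasome genes when the proteasome is inhibited, averaged 858 ± 266 CPM in chimpanzee lines, against 703 ± 108 CPM in rhesus macaque lines and did not pass (log2 fold change 0.29). PAAF1, a protein that binds base ATPases, had a log2 fold change of -0.12 and did not pass.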

How the data were processed

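Raw counts per exon were deposited by the authors for each library, as whole numbers in 1 set of exon names and coordinates, per the file contents; exons missing from a library were taken as 0. No source used here states the aligner, how reads were counted, the build or any use of strand. Counts were summed per gene. The species were compared by quasi-likelihood in edgeR 4.0.16 under R 4.3.3 (TMM, default expression filter with a minimum count of 10 and a minimum total of 15, Benjamini-Hochberg over all 9440 tested genes, threshold 0.05), without covariates, and with glmTreat at a fold of 2. Exon shares used diffSpliceDGE on exons with at least 10 counts. Ratios had 0.5 added to each count and an exact permutation test (SciPy 1.17.1). The fits were tested on simulated data. CPM used TMM-scaled library sizes, and log2 CPM a prior count of 2.

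No file or table paired the identifiers with symbols. Symbols came from chaining genes of the files to RefSeq protein-coding genes in order, with gene lengths within 15% plus 500 bases and distances within 2% plus 2000 bases, which anchored 3030 of 16903 genes. The remaining members took the family gene lying between anchored neighbours, or beyond the anchored neighbour where a single side had one. Several procedures were tried before this one, an earlier one was compared with remembered symbols and dropped, and the final settings were chosen with the data in view. The members, lists and tests were chosen with earlier results of these data known.

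Members were named with values when they passed the 2-fold test, had the largest log2 fold change of their subcomplex in either direction, or were among PSMB5, PSMB6, PSMB7, PSMB10, PSME1, PSME2, PSME3, PSME4, POMP and PSMG1. For this rule, base and lid subunits other than ATPases formed 1 subcomplex. Other members with values in the text were named after their values were seen. Alternatives were other scale factors (RLE, upper quartile), DESeq2 1.42.0, no filter, shared exons, leaving out the exon with most counts, thinning to 1434241 counts, sex as a covariate, males only and leaving out libraries.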

Additional observations from a re-analysis of the deposited data

Results flagged for a closer look

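In 8 of 78 groups of 6 libraries (39 members in each species), 1 library lay far from the other 5 on the log2 CPM scale. Chance would flag about 1 in 20 such groups, 3.9 of 78, if the groups were independent. The groups of a species share the same 6 libraries, so the count of 8 cannot be weighed against that number. Of the 8, 5 were high values in rhesus macaque replicate 3. PSMB1 stood at 626 CPM in rhesus macaque replicate 3 and at 348 to 396 CPM in the others. In the same library PSMD1 had 299.6 CPM (137 to 168 in the others), PSMD11 had 167 CPM (118 to 128), PSMD13 had 184 CPM (102 to 125) and PSMD3 had 639 CPM (400 to 471). PSMB3, counted on 1 exon of 81 bases, was low in rhesus macaque replicate 6, at 12.5 CPM against 28.7 to 45.3 CPM in the others. In chimpanzee replicate 1, PSMA4 was high at 493 CPM, with 163 to 233 CPM in the others, and PSMB4 was low at 382 CPM, with 441 to 474 CPM in the others. PSMB1 and PSMD1 passed the species test with replicate 3 of rhesus macaque included, and their log2 fold changes without it and without chimpanzee replicate 1 were -0.38 and 0.86.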

How the results depend on the processing

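The 11 called members were refitted under 23 alternatives, and no call changed direction. PSMA3, PSMA6 and PSMD4 passed in every alternative in which they were tested. For PSMA6 and PSMD4 these were 22 of the 23, because neither could be tested without the exon with most counts. The other exon of PSMD4 had 60 counts over the chimpanzee libraries and 13 over the rhesus macaque libraries, the opposite direction to the gene. PSMA5 missed the threshold in 13 alternatives and PSMB6 in 8. PSMB1, PSMD1, PSMD7 and PSME1 missed it in 2 each, and PSMB7 and PSMD5 in 1 each, with males only. The count of 6 higher members became 2 with males only, 3 without chimpanzee replicate 1 and rhesus macaque replicates 5 and 6, and 10 without chimpanzee replicate 1 and rhesus macaque replicate 3. The count of 5 lower members became 2 with males only, 3 without chimpanzee replicate 1 and rhesus macaque replicate 3, and 3 without the exon with most counts. Of all genes tested in those fits, 14.4% were higher and 14.4% lower with males only, 25.4% were higher without chimpanzee replicate 1 and rhesus macaque replicates 5 and 6, 22.2% were higher and 22.2% lower without chimpanzee replicate 1 and rhesus macaque replicate 3, and 22.7% were lower without the exon with most counts. Leaving out 1 library at a time gave 5 to 9 higher and 4 to 6 lower members. In those fits 22.0% to 25.6% of all tested genes were higher and 21.5% to 24.1% lower. The 2-fold test passed 0 or 1 member under leave-one-out, 1 without chimpanzee replicate 1 and rhesus macaque replicate 3, and 2 at a fold of 1.5. In the main fit it passed 17.3% of all tested genes, and the shares over all genes in these alternatives are not given here. Exon usage was called in 11 members by the F test, beside 16.8% of all genes tested. It was called in 0 to 3 members under leave-one-out, which was added after seeing the data, beside between 260 of 9913 and 504 of 9838 genes. Members that did not pass kept their side in 618 of 640 values. The exceptions were 20 values that passed and 2 that changed sign without passing in either setting, PSMA1 at -0.34 without its strongest exon and PSME2 at -0.037 with males only. A sign change smaller than the standard error of a value that did not pass was not counted as a change. The 4 ratios kept their side of the threshold on shared exons and without each library. The cause of these changes was not tested. Depth limits PSMC1 and PSMC6, and a member that did not pass may still differ. No paired analysis was possible because the replicate numbers were given in accession order and pair no libraries.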
